A study of Mus musculus with 16 samples.

Results

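Tubulins, the proteins that bind microtubules and the motors that walk on them are described here in SOD1G93A and wild-type mouse spinal cord. The genes were chosen by the symbol printed in the array files: alpha, beta and gamma tubulins with a number (without *Tubb5*), all kinesins and kinesin light chains listed as such, subunits of cytoplasmic dynein and dynein-2, dynein light chains, dynactin, the numbered MAPs (printed with the older prefix Mtap), *Mapt*, *Stmn1* and *Stmn2*. This gave 162 of 41174 probes, for 78 of 27962 gene symbols. *Klc1*, which the files list under an older name, and the MAPs outside the prefix are not among them. Current symbols are used here, so *Map1a* is Mtap1a in the files, *Tuba1a* is Tuba1 and *Tuba1b* is Tuba2.

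Microtubules are hollow polymers of alpha and beta tubulin that form the tracks of the axon, and gamma tubulin is part of the complexes from which they start. Microtubule-associated proteins (MAPs) bind along the polymer, stathmins hold free tubulin dimers, most transport kinesins carry cargo toward the axon tip, and cytoplasmic dynein with its partner complex dynactin carries it back toward the cell body. Motor neurons have long axons, and *Dync1h1*, *Dctn1*, *Kif5a* and *Tuba4a* are known from human motor neuron or motor nerve disease.

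Lumbar spinal cord was measured in mice that carry the human SOD1G93A transgene, which makes a mutant superoxide dismutase under the human gene's own promoter, and in nontransgenic wild-type mice, at 40 and at 80 days of age. All mice had the B6SJL background, and the methods describe them as male and both ages as preclinical. Each of the 4 groups had 4 two-color arrays with 1 Cy3-labeled cord sample each, and every array shared a Cy5-labeled pool of neonatal heart, kidney and liver RNA from both genotypes. All values below are log2 ratios of cord to pool, and a change is the difference of 2 group means of these ratios. In whole cord, fewer cells of a type and less RNA per cell cannot be told apart.

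Cy3 was well above background for 46.2% to 55.4% of all probes on an array and for 70.4% to 75.9% of the 162 probes, none of which was saturated. Replicates of a group correlated at 0.978 to 0.992 over the probes of the array with Cy3 well above background on at least 12 of 16 arrays. Each of the 4 slides carried 1 array of every group, always at the same position for a group, so a position effect and a group effect cannot be told apart here. On 3 arrays (wild-type 40 days replicate 3, SOD1G93A 40 days replicate 4 and SOD1G93A 80 days replicate 4) a few spots with faulty local backgrounds flattened all ratios. The background of those spots was reset, which brought the slope of these arrays against the others from 0.787 to 0.899 up to 0.955 to 1.01. Of the marker genes fixed for neurons, 7 of 7 were above background and the 16 arrays averaged 4.94 to 5.37 over them. Of the motor neuron markers *Chat* was not well above background on any array, while 5 of 6 were measured.

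The probes on which the results below turn are shown by the first 30 of their 60 bases, 5′ to 3′ in the sense of the transcript and in lower case with no base marked, so that the probes of 1 gene can be told from each other. Positions are of the whole probe on the mm7 mouse build.
*Map1a*, A_52_P846109, chr2:121042207-121042266 (plus strand): aggtaaaggaggatgtgatagaaaaggctg
*Map1a*, A_52_P599728, chr2:121044628-121044687 (plus strand): aagagcacagagatttagaacaaaaggacg
*Map1a*, A_52_P593278, chr2:121050353-121050412 (plus strand): tctggttcagttatcatttatcttggaaga
*Map1b*, A_51_P205139, chr13:96494935-96494994 (minus strand): gtcttattctcctaaagcgtgtttctaaag
*Map2*, A_51_P180754, chr1:66678688-66678747 (plus strand): tgcagcgcttgctaagcagggcttgtgaat
*Map2*, A_52_P22763, chr1:66681917-66681976 (plus strand): taatacttatgtttgtgtttttacacctag
*Map1s*, A_51_P431870, chr8:69371761-69371820 (plus strand): aggttggtgctgtggctccatgtgcaaagc
*Tuba1a*, A_51_P169745, chr15:98935135-98935192 (minus strand): ttcatacagttactgacttatgaatgattg
*Kif5a*, A_52_P93042, chr10:126734515-126734699 (minus strand): aaccttcgcaagctgttcgttcaagacgtc
*Kif5a*, A_51_P107020, chr10:126726451-126726510 (minus strand): aaatgttgcatgccggcgtggaagacaaaa
*Kif5c*, A_52_P299903, chr2:49781907-49781966 (plus strand): taaatagctatcctgtgagatagaaatgtc
*Dynlt1b*, A_52_P320711, chr13:45704612-45704671 (plus strand): gctctactttctgaaatgattcagatacac
*Dynll1*, A_51_P414518, chr5:114519368-114519427 (minus strand): acctcgtttgaatctgttgtgttgtgtaca

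Most of these genes gave more signal from cord than from the pool. Of the 162 probes, 117 (66 genes) were well above background in Cy3 on at least 12 of 16 arrays, and 97 of the 117 had a positive mean log2 ratio, with a median of 1.11 against 0.10 over the 20397 probes of the array measured as often. The pool is of other organs and of newborn mice, so organ and age are mixed in this ratio, and no test was made of it. Without normalization within arrays, where the median of all these probes was -2.63, that of the members was -1.82 and 17 were positive.

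**Figure D1:**
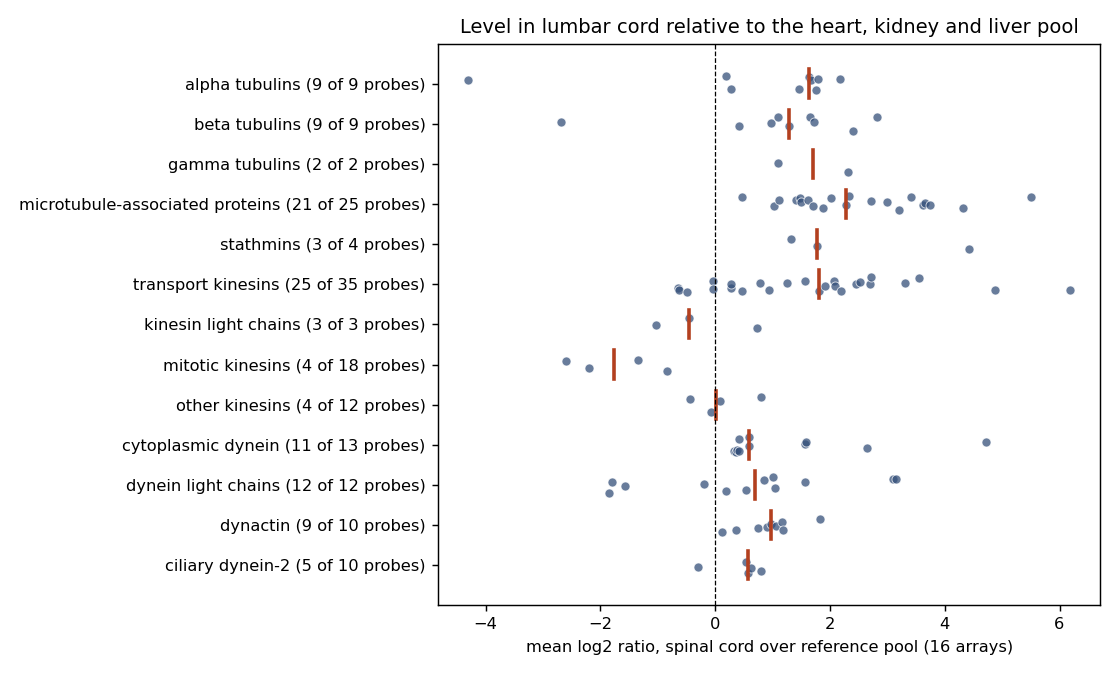
Mean log2 ratio of lumbar cord to the reference pool over 16 arrays (horizontal axis) for the 117 probes measured on at least 12 arrays, by role of the gene. Each point is a probe and each red bar the median of a role. Microtubule-associated proteins have a median of 2.28 and no point below 0, and the 4 measured mitotic kinesin probes lie between -2.61 and -0.84.

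The highest mean ratios over 16 arrays belonged to axonal motors and MAPs of neurons. They were 6.19 ± 0.14 (SD, n = 16) for *Kif5c*, the neuronal kinesin-1 heavy chain, 5.51 ± 0.12 for *Map2*, the MAP of dendrites, and 4.87 ± 0.14 for *Kif5a*, another neuronal kinesin-1 heavy chain. Next came *Dync1i1*, a dynein intermediate chain found mainly in neurons, at 4.71 ± 0.13, *Stmn2*, the stathmin of growing axons, at 4.42 ± 0.16, and *Mapt*, which encodes tau, at 4.31 ± 0.12. All 21 measured MAP probes were positive, from 0.47 for *Map1s* to the value of *Map2*. *Tubb3*, the neuronal beta tubulin, had 2.82 ± 0.08.

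The lowest ratios were found at tubulins, a kinesin of dividing cells and dynein light chains. *Tuba1c* had -4.30 ± 0.34 (SD, n = 16), *Tubb6* -2.69 ± 0.33, *Kif20a*, a kinesin of cytokinesis, -2.61 ± 0.14 and -2.20 ± 0.11 at its probes, *Dynlrb2* -1.84 ± 0.18 and *Dynlt1b* -1.79 ± 0.29. The tubulin transcripts are close copies of each other, so a probe may hold signal from several of them. The second *Tubb6* probe had a positive ratio, of 0.41. The other probes listed under the *Dynlt1* symbol were also higher on single arrays. A_52_P27249 had 0.39 to 1.26 and A_52_P362311 -0.048 to 0.36.

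Kinesins of the mitotic spindle were the group least seen in cord. Of their 18 probes for 9 genes, 12 were not well above Cy3 background on any of 16 arrays, including every probe of *Kif11*, the spindle motor, *Kif14*, *Kif15*, *Kif23* and *Kif2c*, while 12 were above Cy5 background in the pool on at least 12 arrays. The 4 measured probes were -2.61 and -2.20 for *Kif20a*, -1.34 for *Kif4* and -0.84 for *Kif22*. Of 10 markers of proliferating cells, *Ccnb1*, *Aurkb* and *Bub1* were above background on no array. *Mki67*, *Ccnb2*, *Plk1* and *Birc5* were above it on all 16 arrays, *Ccna2* on 15, *Cdk1* on 13 and *Top2a* on 6. The list averaged -2.03 to -1.71 on single arrays.

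Most promoters of these kinesins also held a short sequence, not always close to the start. The letters TTTGAA, on either strand (TTCAAA when read on the gene's own strand), make up the known cell cycle genes homology region, which can lie close to the start of genes used in mitosis. In RefSeq promoters of GRCm38.p6, from 250 bases before to 50 after the start, 7 of 8 promoters of mitotic kinesins held these letters, against 17.9% of all 32851 promoters and 1 of 13 promoters of transport kinesins. The letters CCAAT, on either strand, were in 5 of the 8 and in 37.4% of all. The motifs were chosen with the sequences in view, and a match is a description, not a site. In *Kif14*, *Kif2c*, *Kif23* and *Kif4* the first letter lay at -228, -103, 3 and 20, counted from the start. For 3 other genes the letters, in capitals here, lay 17 to 19 bases before the start, which is why these 50-base stretches are shown.
*Kif11*, chr19:37376332-37376381 (plus strand): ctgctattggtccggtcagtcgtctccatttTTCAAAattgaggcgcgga
*Kif15*, chr9:122951031-122951080 (plus strand): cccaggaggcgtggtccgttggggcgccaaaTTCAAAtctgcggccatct
*Kif22*, chr7:127042421-127042470 (minus strand): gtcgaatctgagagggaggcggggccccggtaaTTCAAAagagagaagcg

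Genotype was compared within each age to see which of these genes differed in SOD1G93A cord before disease. At 40 days 7 of 120 tested probes passed an unadjusted p of 0.05 (5.83%), against 4.48% of all 21358 probes tested, and all 7 were higher in SOD1G93A, where 2.45% of all probes were called higher and 2.03% lower. Of these 7, 6 were probes of MAPs: both probes of *Map2*, 2 of 3 of *Map1a*, the probe of *Map1b* and 1 of 3 of *Mapt*. The other was *Kif1b*, a kinesin that carries synaptic vesicle precursors and mitochondria. At 80 days 16 of 118 tested probes passed (13.6%), against 6.85% of all 21618, of which 10 were higher and 6 lower in SOD1G93A, where 3.73% of all probes were called higher and 3.12% lower. No probe of the array passed at a Benjamini-Hochberg adjusted p of 0.05 at either age, and the lowest adjusted p of a member was 0.998 at 40 days and 0.653 at 80 days. Without normalization within arrays, where the median of all probes shifted by -0.12 at 40 days and by 0.083 at 80 days, 0 probes were higher and 9 lower at 40 days, and 25 higher and 0 lower at 80 days. With local backgrounds as given, the split was 0 higher and 1 lower at 40 days, and 5 higher and 9 lower at 80 days.

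*Map1a*, *Map1b* and *Map2*, MAPs of neurons, each had 1 probe that was higher at 40 days and lower at 80 days in SOD1G93A. The difference of the genotype change between the ages was tested on 16 arrays, and 13 of 120 probes passed an unadjusted p of 0.05 (10.8%), against 6.68% of all 21973. Of the 13, 9 had a lower genotype change at 80 days, where 3.57% of all probes were lower and 3.11% higher, and 5 of these 9 were probes of *Map1a*, *Map1b* and *Map2*. No probe passed after adjustment. Over all 21 tested MAP probes the median change was 0.11 at 40 days, with 18 positive, and 0.071 at 80 days, with 12 positive, so the turn was not general to the list.

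**Figure D2:**
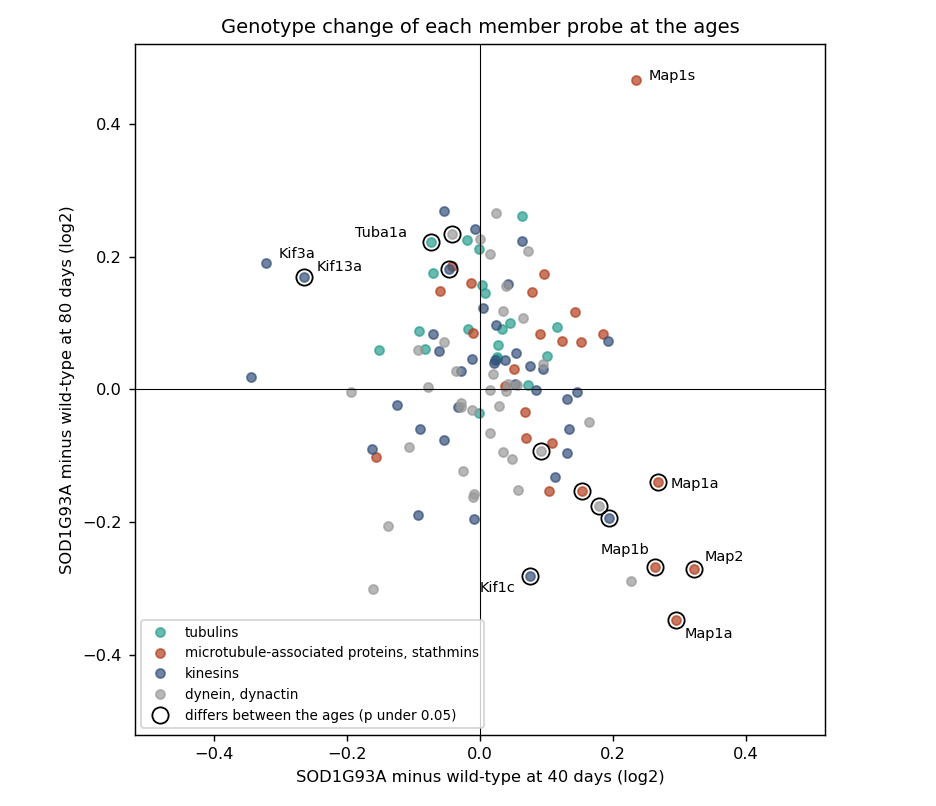
Genotype change of each of the 118 probes tested at both ages, as SOD1G93A minus wild-type on the log2 scale, at 40 days (horizontal axis) and at 80 days (vertical axis), colored by role. Rings mark the 13 probes whose change differed between the ages at an unadjusted p under 0.05. Probes of *Map1a*, *Map1b* and *Map2* lie at the lower right and *Map1s* stands apart at the top.

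*Map1a* encodes a MAP of mature axons and dendrites, and its probe nearest the 5′ end had the lowest p of the members between the ages. At A_52_P846109 the log2 ratios at 40 days were 2.67, 2.25, 2.57 and 2.68 on the wild-type arrays and 2.98, 2.74, 2.75 and 2.87 on the SOD1G93A arrays. At 80 days they were 2.80, 2.77, 3.05 and 3.04 in wild-type and 2.66, 2.39, 2.54 and 2.69 in SOD1G93A. The genotypes did not overlap at either age, with SOD1G93A above wild-type at 40 days and below it at 80 days.

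The change of this probe was 0.29 at 40 days (SE 0.10, p = 0.0151 by limma, exact p = 0.0286 by permuting the arrays, two-sided, which is the smallest that 4 arrays against 4 allow) and -0.35 at 80 days (SE 0.093, p = 0.00372, exact p = 0.0286). The difference between the ages was -0.64 (SE 0.14, p = 0.000372, adjusted p = 0.543, exact p = 0.000408 over 4900 relabellings within the ages). The middle probe A_52_P599728 changed by 0.27 (p = 0.0186, exact p = 0.0571) and -0.14 (p = 0.138, exact p = 0.2), with a difference of -0.41 (p = 0.0077, exact p = 0.011). The call of this probe at 40 days was lost without either of 2 of the 8 arrays, with a highest p of 0.0536. The probe nearest the 3′ end, A_52_P593278, which is the brightest, did not pass at either age, with 0.12 (p = 0.228, exact p = 0.314) and 0.074 (p = 0.421, exact p = 0.429).

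*Map2*, the dendritic MAP, had 2 tested probes. At A_51_P180754 the ratios at 40 days were 1.26, 1.47, 1.18 and 1.36 in wild-type and 1.94, 1.53, 1.59 and 1.49 in SOD1G93A, without overlap. At 80 days they were 1.72, 1.93, 1.28 and 1.57 in wild-type and 1.46, 1.44, 1.29 and 1.23 in SOD1G93A, where the ranges overlapped. The change was 0.32 at 40 days (p = 0.011, exact p = 0.0286), -0.27 at 80 days (p = 0.0533, exact p = 0.143) and -0.59 between the ages (p = 0.00331, exact p = 0.00612). The brighter probe A_52_P22763 changed by 0.15 (p = 0.0321, exact p = 0.0857) and -0.15 (p = 0.0397, exact p = 0.0571), a difference of -0.31 (p = 0.00245, exact p = 0.00245). Another 2 *Map2* probes were above background on no array.

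*Map1b*, best known from growing axons, had 1 probe, A_51_P205139. Its ratios at 40 days were 3.19, 2.86, 3.03 and 2.95 in wild-type and 3.51, 3.11, 3.37 and 3.08 in SOD1G93A, and at 80 days 3.45, 3.26, 3.49 and 3.34 in wild-type and 3.39, 2.83, 3.10 and 3.16 in SOD1G93A. The genotypes overlapped at both ages. It changed by 0.26 (p = 0.0329, exact p = 0.114) and by -0.27 (p = 0.0344, exact p = 0.0857), a difference of -0.53 (p = 0.00472, exact p = 0.00816).

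The differences between the ages at these 5 probes stayed at a p under 0.05 without any single one of the 16 arrays, with a highest p of 0.0196. With local backgrounds as given none of the 5 passed, with p from 0.0695 to 0.276, although the differences were as large, from -0.68 to -0.32. Without normalization within arrays none passed, with differences of -0.18 to -0.065 where the median of all probes was 0.20. In the Cy3 channel alone, which uses no reference, *Map1a* A_52_P846109 had -0.65 and *Map1b* -0.50, both of which passed, and *Map2* A_52_P22763 had -0.16 and did not pass. The genotype changes of *Map1b* and of *Map2* A_52_P22763 at a single age were less firm: at 40 days each lost its call without any of 5 of the 8 arrays, with highest p of 0.0971 and 0.0939, and at 80 days without any of 4 and 5, with highest p of 0.0982 and 0.115. With the slide as a block the 80-day call of *Map2* A_52_P22763 was also lost, with a p of 0.0743. Without wild-type replicate 2 the 40-day change of *Map1a* A_52_P846109 became 0.20 and kept its call.

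**Figure D3:**
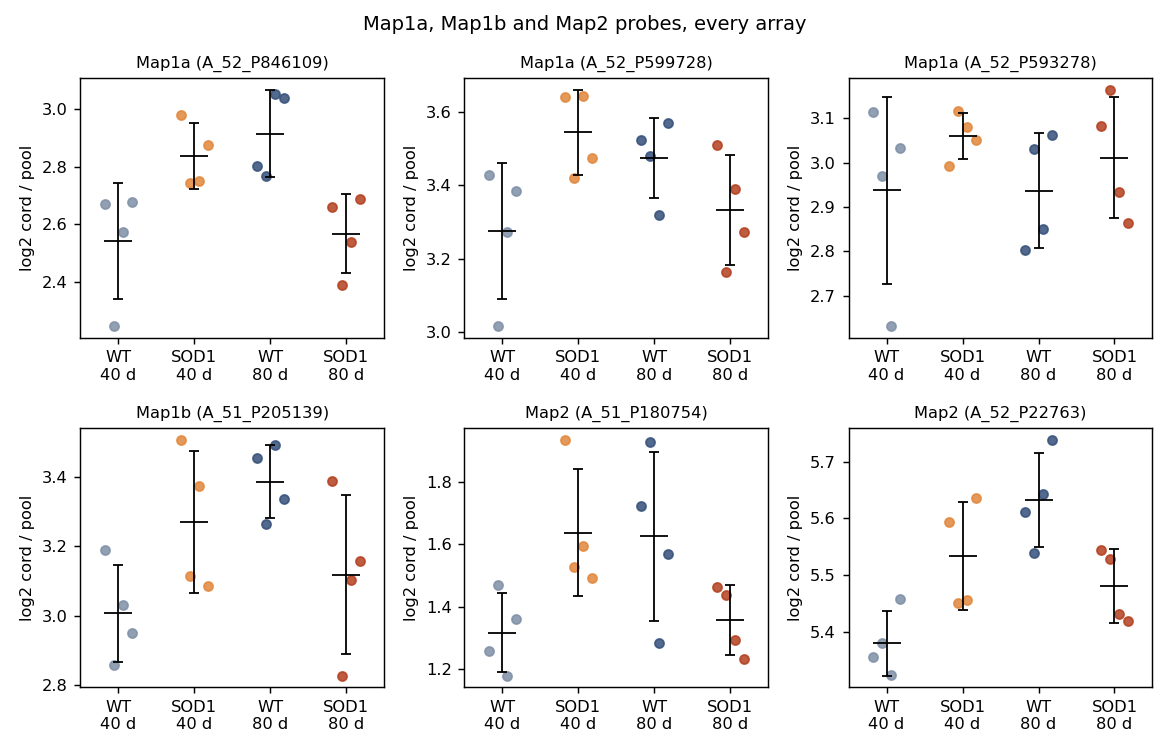
Log2 ratio of cord to pool (vertical axis) of 6 probes of *Map1a*, *Map1b* and *Map2* on every array, by genotype (WT, wild-type) and age in days. Points are arrays and bars the mean ± SD of 4. In 5 of 6 panels SOD1G93A is higher than wild-type at 40 days and lower at 80 days, and the third *Map1a* probe does not show this.

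Markers of other cells moved in the same comparisons, and their part in these changes was not tested. The neuronal list had 0 of 7 genes past a p of 0.05 at 40 days (median change 0.10) and 1 of 7 at 80 days (median -0.052). *Syt1*, of synaptic vesicles, was lower at 80 days (-0.33) and differed between the ages (-0.43). The mean over the 7 genes ran from 4.94 to 5.21 on wild-type and 5.19 to 5.24 on SOD1G93A arrays at 40 days, and from 5.14 to 5.37 and 5.05 to 5.27 at 80 days. Of 6 astrocyte genes, *Gfap* (0.24) and *Slc1a3* (0.19) were higher in SOD1G93A at 40 days, none passed at 80 days, and both differed between the ages (-0.41 and -0.40). The astrocyte mean ran from 3.46 to 3.60 and 3.57 to 3.78 at 40 days, and from 3.50 to 3.74 and 3.37 to 3.72 at 80 days. Of 7 oligodendrocyte genes, 3 were higher at 40 days and 2 at 80 days, with ranges of 5.55 to 5.88 and 5.76 to 6.07 at 40 days, and 5.32 to 5.65 and 5.45 to 5.59 at 80 days. *Cldn11*, of myelin, differed between the ages (-0.32). All genes of these 3 lists were above background. *Slc18a3*, 1 of 5 tested motor neuron genes, differed between the ages (0.37), and *Calca*, the only tested gene of 6 for sensory neurons, was lower in SOD1G93A at 40 days (-0.46).

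*Mapt* and *Kif1b* completed the calls at 40 days. *Mapt* A_51_P476689 had 4.22, 4.24, 4.18 and 4.32 in wild-type and 4.40, 4.33, 4.44 and 4.40 in SOD1G93A, without overlap, a change of 0.15 (p = 0.0162, exact p = 0.0286). Its value at 80 days was 0.071 (p = 0.496, exact p = 0.714), and its other 2 probes had 0.05 and 0.07 at 40 days. *Kif1b* A_51_P324097 changed by 0.19 at 40 days (p = 0.0265, exact p = 0.0857), with overlapping arrays, and lost its call without any of 4 of the 8 arrays, with a highest p of 0.0758. Neither called probe passed in the Cy3 channel alone, in the series matrix, with local backgrounds as given or without normalization within arrays. In that order *Mapt* A_51_P476689 had 0.091, 0.064, 0.13 and 0.019, and *Kif1b* had 0.16, 0.15, 0.18 and 0.041.

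*Map1s*, a relative of *Map1a* and *Map1b* that is expressed in many tissues, had the largest genotype change of the members at 80 days. At 80 days its ratios were 0.60, 0.32, 0.46 and 0.081 in wild-type and 0.85, 0.59, 0.95 and 0.94 in SOD1G93A, so that only the lowest SOD1G93A array fell within the wild-type range. The change was 0.47 (SE 0.12, p = 0.0026, adjusted p = 0.653, exact p = 0.0571), after 0.23 at 40 days (p = 0.0904, exact p = 0.229). It kept a p under 0.05 without any single array, and its change did not differ between the ages past the threshold (0.23, p = 0.227, exact p = 0.409). *Map4*, the MAP of cells outside neurons, was higher by 0.15 at 1 of 3 tested probes (p = 0.0494, exact p = 0.0571), and its call was lost without any of 6 of the 8 arrays and with the slide as a block (a p of 0.0624).

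The alpha tubulins, one partner in the tubulin dimer, were all on the higher side in SOD1G93A at 80 days. All 9 probes (6 genes) had a positive change there, with a median of 0.14 and a range of 0.048 to 0.26, but only *Tuba1a* passed. At 40 days 6 of 9 were positive, with a median of 0.0068. The 9 probes had 9 positive changes at 80 days under each other scaling tried except the processed signals, where 8 were positive, and 7 to 9 were positive without single arrays. Without normalization within arrays 82.8% of all probes were positive at 80 days, against 49.5% in the main analysis. The 9 of 9 under that setting therefore says little about these probes. At 40 days that setting gave 1 of 9 positive, where 7.88% of all probes were positive. Of the 9 beta tubulin probes 8 were positive at 80 days and 3 at 40 days, and none passed, with a lowest p of 0.0727 at 80 days. Tubulin transcripts are closely similar and these probes may share signal, which was not tested, so they are not counted as independent of each other.

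*Tuba1a*, the main alpha tubulin of neurons, is read by A_51_P169745. At 80 days its ratios were 1.36, 1.36, 1.55 and 1.70 in wild-type and 1.71, 1.60, 1.72 and 1.83 in SOD1G93A, with 1 wild-type array inside the SOD1G93A range. The change was 0.22 at 80 days (p = 0.0303, exact p = 0.0571), -0.074 at 40 days (p = 0.474, exact p = 0.514) and 0.30 between the ages (p = 0.0489, exact p = 0.0686). The call at 80 days was lost without any of 5 of the 8 arrays, with a highest p of 0.0886, and that between the ages without any of 11 of 16, with a highest p of 0.1. From 40 to 80 days *Tuba1a* changed by -0.27 in wild-type cord, a call kept under all 19 alternatives. In SOD1G93A cord it changed by 0.023 with age, which did not pass. *Tuba1b*, a close copy, changed by 0.18 at 80 days (p = 0.1, exact p = 0.171).

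Among kinesins, 4 of 26 tested probes of transport kinesins were higher and 1 lower in SOD1G93A at 80 days. Of all probes 3.73% were higher and 3.12% lower. *Kif21b*, a neuronal kinesin, changed by 0.24 (p = 0.0298, exact p = 0.0571) and *Kif3c*, a neuronal subunit of kinesin-2, by 0.18 (p = 0.0226, exact p = 0.0571). *Kif13a*, which moves endosomal cargo, was higher at 2 of 3 tested probes, by 0.17 and 0.16, the latter at a probe above background on 6 of 16 arrays. At its probe A_51_P149906 the ratios were -0.19, -0.17, -0.16 and -0.11 in wild-type and -0.0033, 0.18, -0.025 and -0.10 in SOD1G93A at 80 days, without overlap. The change of this probe differed between the ages by 0.43 (p = 0.016, exact p = 0.0106), and 1 wild-type array at 40 days stood high at 0.55. *Kif3c* also differed between the ages (0.23, p = 0.0173, exact p = 0.0196). Without any of 3, 3 and 5 of the 8 arrays, *Kif21b*, *Kif3c* and *Kif13a* A_51_P149906 no longer passed at 80 days, with highest p of 0.0904, 0.0648 and 0.106, and the last also lost its call with the slide as a block, with a p of 0.0528.

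*Kif1c*, a transport kinesin of many cell types, was lower at 80 days at 1 of its 3 probes. At A_51_P438349 the ratios were 2.53, 2.55, 2.39 and 2.63 in wild-type and 2.02, 2.42, 2.02 and 2.52 in SOD1G93A, of which 2 were low and 2 within the wild-type range. The change of -0.28 (p = 0.0405, exact p = 0.143) turned to 0.018 in the Cy3 channel alone and to 0.045 in the series matrix. *Kif5a* A_52_P93042 differed between the ages by -0.39 (p = 0.0147, exact p = 0.0229), from 0.19 at 40 days to -0.19 at 80 days, neither of which passed. The brightest *Kif5a* probe, A_51_P107020, had 0.095 and 0.031 and did not differ between the ages past the threshold (p = 0.644, exact p = 0.661).

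For the retrograde motor, 2 of 11 tested probes of cytoplasmic dynein, 1 of 12 of dynein light chains and 2 of 9 of dynactin passed at 80 days, and none passed at 40 days. Of all probes 6.85% passed at 80 days and 4.48% at 40 days. *Dctn5*, a subunit of the pointed end of dynactin, had the lowest p of the retrograde motor probes at 80 days. At A_52_P474739 its ratios at 80 days were 0.88, 0.68, 0.77 and 0.76 in wild-type and 0.96, 1.08, 1.08 and 0.91 in SOD1G93A, without overlap. The change was 0.23 (SE 0.068, p = 0.00607, exact p = 0.0286), with -0.042 at 40 days and a difference of 0.28 (p = 0.0103, exact p = 0.0208). A further probe, A_51_P201841, changed by 0.23 (p = 0.0405, exact p = 0.114), while the third, A_52_P387954, passed at neither age (p = 0.782 and 0.995, exact p = 0.714 and 1). The second probe lost its call without any of 5 of the 8 arrays, with a highest p of 0.112, and with the slide as a block, with a p of 0.0609.

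*Dync1h1*, the dynein heavy chain, changed in opposite directions at its called probes. At 80 days A_51_P354698, nearest the 3′ end, was higher by 0.20 (p = 0.0326, exact p = 0.0571). The probe nearest the 5′ end, A_52_P267784, changed by -0.29 (p = 0.044, exact p = 0.0857). Both calls were lost on leaving out single arrays, at 4 and 5 of 8, with highest p of 0.0965 and 0.13. The other *Dync1h1* probe, A_52_P412656, was not called at 80 days. Its ratios then were 0.23, 0.24, 0.34 and 0.39 in wild-type and 0.41, 0.22, 0.26 and 0.21 in SOD1G93A. *Dynlrb1*, a dynein light chain of the roadblock family, changed by -0.21 at 80 days (p = 0.0413, exact p = 0.114), a call lost without any of 6 of 8 arrays. *Dync1li2*, a light intermediate chain, differed between the ages at 1 of 4 probes by -0.35 (p = 0.0403, exact p = 0.0547), and its brightest probe had -0.041. *Dync2h1*, the heavy chain of the ciliary dynein-2, differed by -0.18 at 1 of 5 tested probes (p = 0.0436, exact p = 0.0237).

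Because probes of 1 gene disagreed, their position was set against their change. In 28 member genes with probes at least 1000 bases apart on the files' coordinates, the probe nearest the 5′ end had a difference between the ages below that of the probe nearest the 3′ end in 18, with a median of -0.036, against -0.0025 in 3307 other genes. The probe nearest the 5′ end was above in 10 of the 28, and in 49.3% of the other genes. The gaps were -0.70 in *Dync1h1*, -0.59 in *Map1a*, -0.58 in *Kif13a*, -0.51 in *Kif1c*, -0.33 in *Map4* and -0.32 in *Kif5a*, and the widest the other way was 0.29 in *Dctn5*. Taken as the median over the other genes on each array, 5′ minus 3′ had group means of -0.013 ± 0.037 (SD, n = 4) and 0.0093 ± 0.015 at 40 days, and -0.0081 ± 0.0083 and 0.011 ± 0.017 at 80 days, wild-type first. It differed between genotypes by 0.022 at 40 days (exact permutation p = 0.343) and by 0.019 at 80 days (exact permutation p = 0.114), and between the ages by -0.0032 (exact permutation p = 0.894). Whether the probes read different transcript forms was not tested. With only the probe nearest the 3′ end for each gene, 3 of 66 probes passed at 40 days, 10 of 66 at 80 days and 5 of 66 between the ages, against 3.79%, 6.33% and 5.58% of all genes.

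**Figure D4:**
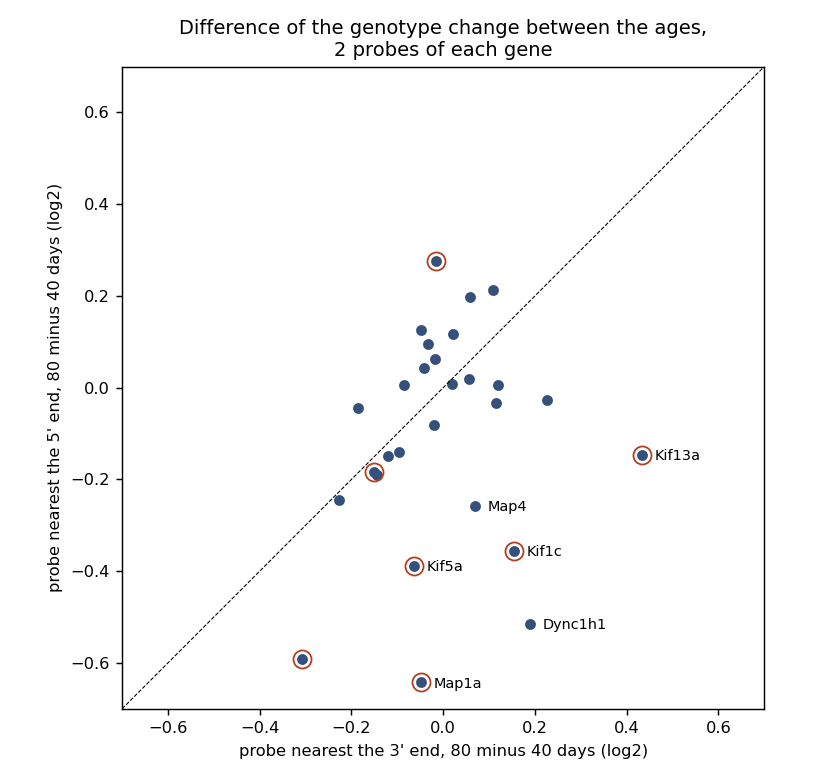
Difference of the genotype change between the ages (80 minus 40 days, log2) at the probe nearest the 3′ end (horizontal axis) and nearest the 5′ end (vertical axis) of 28 member genes. The dashed line marks equal values and rings mark genes with 1 of the 2 probes at an unadjusted p under 0.05. *Dync1h1*, *Map1a*, *Kif13a*, *Kif1c*, *Map4* and *Kif5a* lie more than 0.3 below the line.

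The ages were compared within each genotype, on the spread of all 16 arrays. In wild-type cord 16 of 120 probes passed an unadjusted p of 0.05 (13.3%, against 15.1% of all 21973), 7 higher and 9 lower at 80 days, where 6.79% of all were higher and 8.27% lower. After adjustment 3 members passed, against 1.58% of all. In SOD1G93A cord 24 of 120 passed (20%, against 16.9% of all), 7 higher and 17 lower, where 8.63% of all were higher and 8.29% lower. After adjustment 2 members passed, against 1.12% of all. These comparisons share arrays with those between genotypes, so the same arrays underlie the values that follow.

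The changes with age that were largest relative to their error were in 2 dynein light chains, and both fell in wild-type and in SOD1G93A cord. *Dynlt1b*, a light chain of the Tctex family that binds cargo, is read by A_52_P320711 and had -1.53, -1.48, -1.49 and -1.53 in wild-type at 40 days and -2.01, -2.18, -2.01 and -2.15 at 80 days. In SOD1G93A it had -1.55, -1.77, -1.65 and -1.30 and -2.10, -2.05, -1.88 and -2.04. The arrays of the ages did not overlap in either genotype. It fell in wild-type by 0.58 on the log2 scale (adjusted p = 0.0019, exact p = 0.0286) and in SOD1G93A by 0.45 (adjusted p = 0.0115, exact p = 0.0286).

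The mouse genome holds several near-identical *Dynlt1* copies, so this signal cannot be given to 1 of them. A further probe listed under the same symbol, A_52_P27249, changed by -0.29 in wild-type (p = 0.0317, exact p = 0.114) and -0.42 in SOD1G93A (p = 0.0037, exact p = 0.0286), and the third by -0.044 and -0.093. *Dynll1*, the light chain LC8, had 0.012, 0.092, 0.14 and -0.13 in wild-type at 40 days and -0.39, -0.32, -0.46 and -0.30 at 80 days, and -0.12, 0.039, -0.12 and 0.0057 and -0.31, -0.44, -0.46 and -0.26 in SOD1G93A, again without overlap of the ages. It fell by 0.40 (adjusted p = 0.00676, exact p = 0.0286) and by 0.32 (adjusted p = 0.0351, exact p = 0.0286). No genotype change of either gene passed at either age, with values of -0.055 and 0.072 for *Dynlt1b* and -0.078 and 0.0037 for *Dynll1*. Both falls kept their call in wild-type under every alternative tried, and in SOD1G93A that of *Dynlt1b* did so and that of *Dynll1* did not pass without normalization within arrays, at -0.20.

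**Figure D5:**
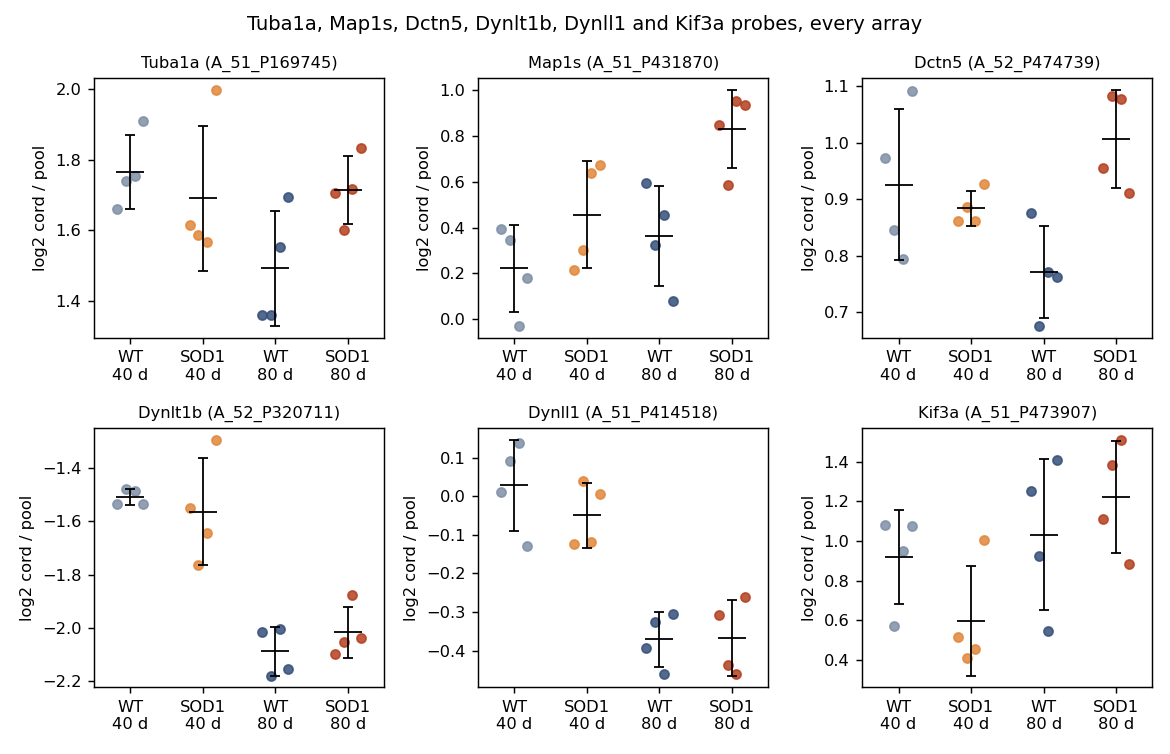
Log2 ratio of cord to pool (vertical axis) of *Tuba1a*, *Map1s*, *Dctn5*, *Dynlt1b*, *Dynll1* and *Kif3a* on every array, by genotype (WT, wild-type) and age in days. Points are arrays and bars the mean ± SD of 4. *Dynlt1b* and *Dynll1* separate the ages in both genotypes, while *Map1s* and *Dctn5* are highest in SOD1G93A at 80 days.

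The probes of neuronal MAPs that rose with age in wild-type cord did not rise in SOD1G93A cord. In wild-type cord *Map1a* A_52_P846109 rose by 0.37 (adjusted p = 0.0816, exact p = 0.0286), *Map1b* by 0.38 (adjusted p = 0.12, exact p = 0.0286) and *Map2* A_52_P22763 by 0.25 (adjusted p = 0.0458, exact p = 0.0286), the last of which passed after adjustment. In SOD1G93A the same probes had -0.27 (p = 0.0172, exact p = 0.0286), -0.15 (p = 0.204, exact p = 0.457) and -0.053 (p = 0.392, exact p = 0.371), so of these 3 only *Map1a* fell there. The other *Map2* probe, A_51_P180754, went from a rise of 0.31 in wild-type to -0.28 in SOD1G93A (p = 0.0211 and 0.0342, exact p = 0.0857 and 0.0286), and its rise turned to -0.049 with the processed signals. Without normalization within arrays, where all probes shifted by -0.11 in wild-type and by 0.082 in SOD1G93A, the changes in wild-type were 0.034 at this probe and 0.060 to 0.10 at the other 3, and none passed. The falls in SOD1G93A were no longer called there or with local backgrounds as given: that of *Map1a* A_52_P846109 became -0.070 and -0.071, and that of *Map2* A_51_P180754 -0.15 and -0.099.

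Other changes with age passed in 1 genotype. In SOD1G93A *Kif3a*, a subunit of kinesin-2, rose by 0.63 (p = 0.00393, exact p = 0.0571), *Klc4*, a kinesin light chain, by 0.41 (p = 0.0211, exact p = 0.0286), *Dctn1*, the large dynactin subunit, by 0.36 (p = 0.0208, exact p = 0.0286) and *Map1s* by 0.37 (p = 0.0111, exact p = 0.0857). *Dync1h1* A_52_P267784 fell by 0.59 (p = 0.00347, exact p = 0.0286), while its probe nearest the 3′ end, A_51_P354698, had 0.12 and did not pass (limma p = 0.152). In wild-type the called probes of these genes had 0.11, 0.086, 0.12, 0.14 and -0.078, and none of the genotypes' age changes differed at a p under 0.05 for them. The rises of *Klc4* and *Dctn1* were no longer called without any of 2 and 3 of the 8 arrays, with highest p of 0.0773 and 0.084. *Kif7*, the kinesin of hedgehog signaling at the cilium, fell by 0.43 in wild-type (p = 0.00618, exact p = 0.0286), from a ratio near background, since its Cy3 was above background on 12 of 16 arrays. In wild-type at 40 days 2 of its arrays were high, at 0.054 and 0.32 against -0.44 and -0.51, and without the highest, replicate 4, the change was -0.27 and kept its call. Further called falls in wild-type were -0.27 for *Tuba1a*, -0.28 for *Kif13a* A_51_P149906 and -0.15 for *Dctn5* A_52_P474739. In SOD1G93A these probes changed with age by 0.023, 0.15 and 0.12, and none passed. Of 19 alternatives, 19, 15 and 10 kept the wild-type call, in that order. *Dync1i2*, a dynein intermediate chain, fell at 1 of 2 probes in both, by 0.22 and 0.16. *Map6*, which keeps microtubules stable in the cold, went opposite ways at its probes in SOD1G93A, by -0.30 at A_52_P10732 and 0.24 at A_52_P885499. *Map7*, a MAP that recruits kinesin-1, fell by 0.20 at both of its called probes. Further falls in SOD1G93A were in *Tubb2b* (-0.21, and -0.32 without replicate 4 of 80 days, with the call lost with the slide as a block at a p of 0.0506), *Kif21a* (-0.19) and *Kif1b* A_51_P264956 (-0.14), and *Dctn2* rose by 0.21.

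Other members with a known place in axons gave no call between genotypes at their brightest probes. Their brightest probes changed in SOD1G93A at 40 and at 80 days by 0.13 and -0.096 for *Kif5c*, by 0.085 and -0.0014 for *Kif1a*, a carrier of synaptic vesicle precursors, and by -0.033 and -0.026 for *Kif5b*, the kinesin-1 heavy chain of all cells. They changed by -0.16 and -0.10 for *Stmn2*, by 0.038 and 0.0047 for *Stmn1*, by 0.048 and -0.10 for *Dync1i1* and by 0.024 and 0.26 for *Dctn1*, and none of these passed. Neither gamma tubulin probe, none of the 3 stathmin probes and none of the 3 kinesin light chain probes passed between genotypes at either age or between the ages. Of 27 member probes never above background, 12 were of mitotic kinesins, 5 of transport kinesins, 3 of other kinesins, 3 of MAPs, 3 of dynein-2 and 1 of cytoplasmic dynein.

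Of the oligodendrocyte markers 3 of 7 fell with age in wild-type and 4 of 7 in SOD1G93A, with -0.70 and -0.51 for *Mog* and -0.60 and -0.93 for *Cldn11*, both genes of the myelin sheath. In wild-type *Syt1* (0.31), 1 of 7 neuronal genes, *Slc5a7* (0.20), 1 of 5 tested motor neuron genes, and *Slc1a3* (0.22) and *Aldh1l1* (0.23), 2 of 6 astrocyte genes, were higher at 80 days. In SOD1G93A *Syp* (0.21) of the neuronal, *Slc18a3* (0.37) of the motor neuron, *Aldh1l1* (0.23) of the astrocyte and *Tmem119* (0.27) of the 8 microglial genes were higher and *Aqp4* (-0.47) of the astrocyte genes was lower. Their part in the age changes was not tested.

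Microtubule genes outside the rule were described from a list of 61, of which 60 were tested. At 40 days 4 were higher and 0 lower in SOD1G93A: *Vash1* (0.16), a tubulin carboxypeptidase, *Hook3* (0.20), a dynein adaptor, *Mapk8ip1* (0.19), a kinesin scaffold, and *Ckap5* (0.18), a microtubule polymerase. At 80 days 0 were higher and 3 lower: *Hook3* (-0.27), *Camsap2* (-0.23), which holds minus ends, and *Vash1* (-0.13). Between the ages 1 was higher and 4 lower, with *Hook3* at -0.47. Of all probes 4.48%, 6.85% and 6.68% were called in these comparisons. The median change of the list was 0.016 at 40 days and 0.0033 at 80 days.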

How the data were processed

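Lumbar cord RNA (Cy3) and the reference pool (Cy5) were hybridized on 16 two-color Agilent arrays without dye exchange. The deposited scanner files hold the intensity of each spot in both channels, extracted by the authors with Agilent Feature Extraction 9.5.3.1 per the submitters' notes. The deposited series matrix holds log2 values that follow the Cy3 channel of the same arrays (correlation 0.9925 to 0.999), with column medians near 6.40 at 40 days and 6.09 at 80 days and an unstated scaling; it was an alternative.

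Median signals were used. Backgrounds of spots more than 20 units below their local background were set to the array median, and signals were corrected by normexp (offset 50), loess within arrays and quantiles of mean intensity between arrays in limma 3.58.1 (R 4.3.3). Control and outlier spots were left out and spots of a probe averaged. Probes entered a test when 3 or more of the 4 arrays in a compared group had Cy3 well above background, with values from 2 or more arrays in every group. Genotypes were compared on the 8 arrays of an age, and ages and their difference on 16 arrays, with limma's moderated test. Calls use an unadjusted two-sided p under 0.05, as the study's methods do, with Benjamini-Hochberg values over all probes tested. Single probes also had two-sided exact permutation tests. The steps were tested on simulated data.

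Named genes were a fixed list by role, up to 12 called probes with the largest change per comparison, and the 6 highest and lowest cord ratios; others named were chosen after their values were seen. The members, gene lists, motifs and tests were chosen with earlier results of these data known. Of the 162 probes, 117 were matched to current symbols by accession and 43 by symbol or synonym. Probe positions are those of the files (mm7). Nothing in the labels says how arrays map to animals, so p-values measure the spread between these samples. The study's methods name more animals per group than the 4 samples analyzed, and say that arrays of low quality were dropped. The number of arrays limits the precision.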

Additional observations from a re-analysis of the deposited data

Results flagged for a closer look

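Single arrays stood apart from the other 3 of their group at 5 of 216 groups of 4 arrays checked, over 56 probes, where chance gives about 5%. In SOD1G93A at 40 days replicate 4 was highest for *Tuba1a*, at a log2 ratio of 2.00 against a median of 1.59 in the others, and for *Tubb2a*, at 1.89 against 1.63. In the same group replicate 2 was highest for *Klc2*, a kinesin light chain, at 0.79 against 0.63, and replicate 1 was lowest for *Dctn1*, at 1.43 against 1.80. In SOD1G93A at 80 days replicate 1 was highest for *Kif1a*, at 2.27 against 2.03.

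The genotype change differed between 80 and 40 days, at an unadjusted p under 0.05 in the limma interaction test, at 12 of the probes checked. All 12 were put among the probes checked by passing this same test, so their number was set by that choice. Over all members 13 of 120 probes passed, against 6.68% of all probes. The differences at the 12 were -0.64 and -0.41 for *Map1a*, -0.59 and -0.31 for *Map2*, -0.53 for *Map1b*, -0.39 for *Kif5a*, -0.36 for *Kif1c* and -0.35 for *Dync1li2*. On the other side they were 0.43 for *Kif13a*, 0.30 for *Tuba1a*, 0.28 for *Dctn5* and 0.23 for *Kif3c*. None passed after adjustment over all probes.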

How the results depend on the processing

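Of 1366 values of the 64 called changes of named probes under the alternatives, 1040 kept their direction and an unadjusted p under 0.05, 323 kept only the direction and 3 reversed. The reversed values were those of *Kif1c* at 80 days, at 0.018 from Cy3 alone and 0.045 from the series matrix, and of *Map2* A_51_P180754 with age in wild-type, at -0.049 with the processed signals. The cause was not tested.

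The number of called members at 40 days, 7, became 1 with local backgrounds as given, 13 with the processed signals, 11 with array weights and 12 with the replicate number as a block, where 1.16%, 7.56%, 6.34% and 4.49% of all probes were called instead of 4.48%. At 80 days 16 became 25 without normalization within arrays, 28 with array weights and 6 with the 5′ to 3′ score of each array as a covariate, where the share of all probes was 10.2%, 11% and 2.79% instead of 6.85%. Between the ages 13 became 3 with backgrounds as given and 32 without normalization within arrays, with 3.63% and 19.6% of all probes instead of 6.68%. With age, 16 in wild-type became 30 without normalization within arrays, and 24 in SOD1G93A became 8 with backgrounds as given, with 18.1% of all probes instead of 15.1% and 11.4% instead of 16.9%. Without normalization within arrays the splits were 32 higher and 0 lower between the ages, 0 and 30 with age in wild-type and 13 and 3 in SOD1G93A. A like count did not mean the same probes. At 40 days 2 of 7 called members in the Cy3 channel alone and 2 of 7 in the series matrix were among the main 7. With the processed signals 3 of 13 were. At 80 days 5 of 13 in Cy3 alone and 5 of 16 in the series matrix were among the main 16.

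With the brightest probe of each gene, which leaves 66 probes, the counts in this order of comparisons were 3, 9, 4, 8 and 12, and with the probe nearest the 3′ end 3, 10, 5, 8 and 10. At an adjusted p they were 0, 0, 0, 3 and 2. Leaving out 1 array gave 4 to 12 at 40 days, 7 to 18 at 80 days, 10 to 19 between the ages, 13 to 17 with age in wild-type and 10 to 23 in SOD1G93A. At 40 days the count was 4 without SOD1G93A replicate 1, 11 without wild-type replicate 1 or SOD1G93A replicate 4 and 12 without wild-type replicate 4. At 80 days it was 7 without wild-type replicate 2 and 9 without SOD1G93A replicate 2 or 3, and with age in SOD1G93A 10 without replicate 1 of 40 days and 15 without replicate 3 of 80 days.

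The replicate numbers, which are the slides, did not pair the samples over all groups: 8 of 24 same-numbered pairs correlated above 0.1 in their deviations from the group means (range -0.14 to 0.23), though the 4 pairs of SOD1G93A at 40 and 80 days were all positive (0.087 to 0.23), and 7 of 16 arrays correlated best with their own number. With the replicate block the counts were 12, 17, 14, 19 and 21, and 6 of the 64 called changes lost their call, with p of 0.0506 to 0.0743. The series matrix was not run for the changes with age, since its column medians differ between the ages. The 5′ to 3′ alternatives were chosen after seeing the data. The 27 member probes never above background gave no measured level.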
